A study of Mus musculus with 8 samples.

Results

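Ly6a, Ly6c1, Ly6c2 and Ly6e encode surface antigens of the Ly6 family, and they were described here in endothelial cells (EC) sorted from healthy and infarcted adult mouse hearts. These 4 genes, of 16791 in the count table, were chosen by name with their measured levels in these same libraries already known, so their difference between healthy and infarcted hearts is given as a description without a test. Each of the 8 samples was the single-cell library of 1 mouse. All 8 mice carried the Pdgfb-iCreERT2 and R26R-Brainbow2.1 (Confetti) transgenes, both heterozygous, on a C57Bl6 background, and all received a single dose of 150 mg/kg tamoxifen. The 4 infarcted mice (244, 250, 255 and 256) had a myocardial infarction (MI) made by tying off the left anterior descending artery for good 14 days after tamoxifen, and their ventricles were taken at day 7 after surgery. The 4 healthy mice (227, 228, 239 and 240) had no operation and were taken at the same 21 days after tamoxifen. The mice were adults of both sexes, 8 to 10 weeks old. The sort kept CD31+ podoplanin- cells that expressed a Confetti fluorophore, so the cells studied were those in which the Pdgfb promoter had driven Cre, and the heart's other endothelium was not sampled.

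The Ly6 and urokinase receptor family shares a compact fold of finger-like loops held by disulphide bonds, and most members are tethered to the outer cell membrane by a glycosylphosphatidylinositol (GPI) anchor. Ly6a, better known as Sca-1, is used to isolate stem and progenitor cells and is also abundant on mouse endothelium. Ly6c1 and Ly6c2 encode the Ly6C antigens, which are widely used to sort inflammatory monocytes and are also found on endothelium, and Ly6e encodes a surface protein that alters the entry of several viruses. Several genes of the family are inducible by interferon.

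All 4 genes lie on chromosome 15 of the mm10 (GRCm38) build. Ly6e spans chr15:74955051-74959905 on the plus strand, and the other members lie on the minus strand at chr15:74994877-74998031 (Ly6a), chr15:75044018-75048830 (Ly6c1) and chr15:75108158-75111970 (Ly6c2). Ly6c1 and Ly6c2 are near-identical copies. Their annotated transcripts of 844 and 822 bases were 97.57% identical over 822 aligned bases, and the last 300 bases, from which 3' counting draws its reads, differed at 6 of 293 aligned positions. Their coding sequences of 393 bases differed at 9 positions, of which 7 fall in the first 300 bases. That stretch is printed from base 1 to base 300 because it shows how little sequence separates the copies, with the differing bases in capitals.
Ly6c1: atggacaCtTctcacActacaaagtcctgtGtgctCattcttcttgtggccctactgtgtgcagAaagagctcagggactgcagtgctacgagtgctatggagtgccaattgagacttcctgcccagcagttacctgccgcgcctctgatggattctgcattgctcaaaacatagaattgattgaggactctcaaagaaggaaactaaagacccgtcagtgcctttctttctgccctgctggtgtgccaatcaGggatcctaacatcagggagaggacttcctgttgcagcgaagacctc
Ly6c2: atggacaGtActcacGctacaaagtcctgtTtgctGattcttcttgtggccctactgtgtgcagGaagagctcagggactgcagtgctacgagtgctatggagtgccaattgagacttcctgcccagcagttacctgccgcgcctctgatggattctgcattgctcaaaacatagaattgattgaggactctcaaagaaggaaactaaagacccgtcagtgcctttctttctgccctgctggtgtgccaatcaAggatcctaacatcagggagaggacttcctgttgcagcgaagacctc
Of the 748 windows of 75 bases (taken as the read length, although the cDNA reads may have had another) in the Ly6c2 transcripts, 21.93% occurred exactly in Ly6c1 and 87.83% occurred there with up to 2 mismatches. A read placed in one copy can thus come from the other, and the division of counts between Ly6c1 and Ly6c2 is uncertain throughout. Ly6a was further away, with 84.56% identity to Ly6c1 over 803 aligned bases, and Ly6e further still, with 64.4% identity to Ly6a over the coding sequence.

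The windows at the gene starts were less alike than the coding sequences. Start-site windows from RefSeq (GRCm38.p6) were used for 2 of the 4 members, Ly6c1 at chr15:75048788-75049087 and Ly6c2 at chr15:75111922-75112221, both on the minus strand and each from 250 bases before to 50 bases after the most upstream start. They were 78.2% identical over 266 aligned bases. Both are shown because the copies differed so much in UMI count, with bases that differ or have no partner in capitals. The part of these windows in the counts of the copies was not tested.
Ly6c1: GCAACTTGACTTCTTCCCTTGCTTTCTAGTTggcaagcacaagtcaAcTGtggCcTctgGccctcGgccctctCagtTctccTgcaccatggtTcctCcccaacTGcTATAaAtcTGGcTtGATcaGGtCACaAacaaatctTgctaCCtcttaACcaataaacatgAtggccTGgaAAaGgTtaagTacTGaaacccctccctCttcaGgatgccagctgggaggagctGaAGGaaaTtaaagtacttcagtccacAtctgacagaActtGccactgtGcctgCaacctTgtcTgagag
Ly6c2: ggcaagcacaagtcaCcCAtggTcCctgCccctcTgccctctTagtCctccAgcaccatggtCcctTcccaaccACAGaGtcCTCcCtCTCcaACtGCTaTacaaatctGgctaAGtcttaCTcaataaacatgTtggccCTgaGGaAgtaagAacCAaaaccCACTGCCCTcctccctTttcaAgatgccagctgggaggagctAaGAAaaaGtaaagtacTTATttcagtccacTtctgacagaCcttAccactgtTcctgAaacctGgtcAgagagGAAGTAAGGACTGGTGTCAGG

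The libraries held 31028 cells, of which 28981 (93.4%) carried more endothelial than other marker counts and are called endothelial below. They numbered 2668 to 3574 in healthy mice and 3393 to 4817 in MI mice. The MI libraries were deeper, with a median of 3406 to 4675 unique molecular identifiers (UMIs) per endothelial cell against 1475 to 2083. Healthy libraries 227 and 228 shared 301 cells, and 228 and 239 shared 2030, which had the same barcode and in which at least 90% of the shallower cell's UMIs lay on the same genes in the deeper one. The shallower endothelial cells in 228 had a median of 41.3% of the UMIs of their partners in 239, and those in 227 had 19.8% of the UMIs of theirs in 228. The shallower copies made up 53.3% of the endothelial cells of mouse 228 and 10.6% of those of mouse 227, and the members' levels over endothelial cells are also printed without them. Mice 227 and 244 had low Xist (57.5 and 0.505 counts per 1000000 UMIs, CPM) and expressed the Y-linked gene Ddx3y (74.4 and 81.7 CPM), whereas the other libraries had 1013 to 1169 CPM of Xist and no Ddx3y. The sorted cells expressed the defining endothelial genes Pecam1 (703 to 977 CPM), Cdh5 (913 to 1161 CPM) and Kdr. Kdr had 732 to 929 CPM in healthy and 402 to 589 CPM in MI mice, without overlap. All 6 lymphatic markers examined were detected in each mouse, with a summed level of 56.7 to 145 CPM in healthy and 76.0 to 264 CPM in MI mice. Ccl21a (13.2 to 196 CPM) and Flt4 (36.6 to 47.0 CPM) led this sum, whereas Prox1 reached 4.23 CPM and Pdpn 1.75 CPM at most.

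Ly6c2 was the member that differed most between the groups. Its level over endothelial cells was 163, 99.6, 68.7 and 65.2 CPM in healthy mice 227, 228, 239 and 240, and 17.4, 21.5, 12.7 and 37.3 CPM in MI mice 244, 250, 255 and 256. Every healthy mouse lay above every MI mouse, and the groups did not overlap. The means were 99.2 ± 45.4 CPM and 22.2 ± 10.7 CPM (SD, n = 4 each), and the fitted log2 fold change was -2.25 ± 0.37 (SE), which is 4.75-fold lower in MI. Without the copied cells the healthy mice had 171, 138, 68.7 and 65.2 CPM. The copies held little Ly6c2 for their depth, with 23 UMIs (10.7 CPM) in the 1827 of mouse 228 against 326 UMIs (62.5 CPM) in their partners in 239, and 2 UMIs in the 284 of mouse 227 against 203 in their partners in 228.

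Ly6c1, the abundant copy, was also lower in MI, by a smaller factor. Healthy mice had 3984, 3092, 3355 and 3070 CPM, and MI mice had 2276, 2588, 2079 and 2968 CPM. With the copied cells removed, the healthy values were 4068, 3153, 3355 and 3070 CPM. The groups did not overlap, although MI mouse 256 came close to the lowest healthy mice. The means were 3375 ± 426 and 2478 ± 388 CPM (SD, n = 4 each), with a log2 fold change of -0.53 ± 0.13 (SE). Markers of cell type moved in the same sums. The endothelial gene Kdr was lower in MI, with means of 830 ± 80.5 CPM in healthy and 488 ± 80.0 CPM in MI mice. Pecam1 was higher, at 787 ± 60.3 and 906 ± 60.1 CPM (SD, n = 4 each). Of 8 capillary genes 7 were lower in MI, and Car4, a capillary carbonic anhydrase, fell by 1.55 ± 0.37 on the log2 scale (adjusted p = 0.00863, edgeR). Plvap, a component of endothelial diaphragms, rose by 5.29 ± 0.42 (adjusted p = 8.87e-05, edgeR), and 7 of 9 further genes of the Plvap-high list rose. Over all 12274 genes tested in that fit, 2299 were called lower and 2367 higher. The summed level of haematopoietic markers was 61.5 to 169 CPM in healthy and 312 to 471 CPM in MI mice. The part of these markers in the members' levels over endothelial cells was not tested, and levels within cell classes are given further on.

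Ly6a was measured at 3847, 3214, 2969 and 2777 CPM in healthy mice and at 2743, 2950, 2708 and 3061 CPM in MI mice. Without the copied cells healthy mice 227 and 228 had 3860 and 3088 CPM, and the others were as before. The groups overlapped, and the log2 fold change was -0.24 ± 0.11 (SE). Ly6e was the most even member among healthy mice, at 2637, 2533, 2542 and 2532 CPM in healthy mice and 2386, 2700, 2236 and 2806 CPM in MI mice. Without the copied cells mouse 228 moved to 2396 CPM and mouse 227 to 2640 CPM. The MI mice lay on both sides of the healthy range either way, and the log2 fold change was -0.10 ± 0.09 (SE). The 2 members whose groups did not overlap stand against a background of 36.5% of the 12274 genes tested, and 38.0% of those genes passed an adjusted p of 0.05 in the same fit by edgeR's quasi-likelihood test. Nothing is read from this count, since the members were chosen with these values known.

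**Figure D1:**
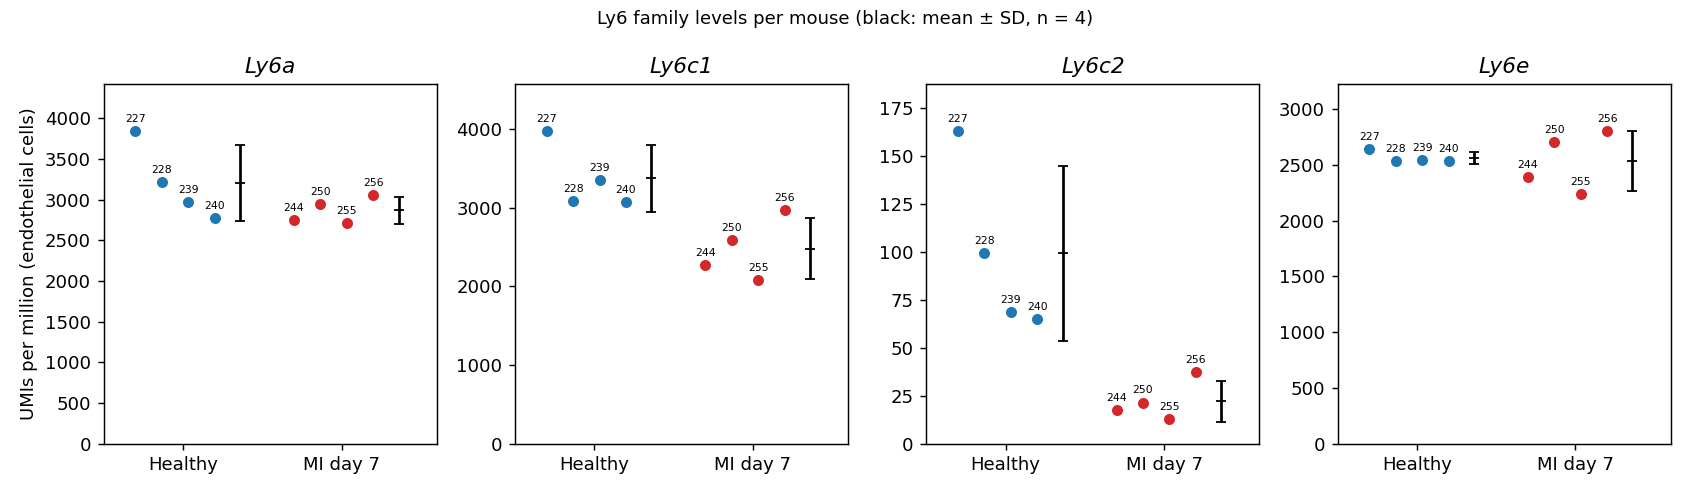
Counts per 1000000 UMIs (CPM, y axis, from 0) of Ly6a, Ly6c1, Ly6c2 and Ly6e summed over the endothelial cells of each mouse, with 1 numbered point a mouse and the mean ± SD in black (n = 4). For Ly6c2 the healthy mice lie at 65.2 to 163 CPM and the MI mice at 12.7 to 37.3 CPM, whereas the groups overlap for Ly6a and Ly6e.

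Cell by cell, Ly6c2 differed from the other members in how rarely it was seen. Endothelial cells were thinned to 1000 UMIs each, which evens out UMIs per cell and leaves out 1610 shallower healthy cells and no MI cell. Thinning does not even out the reads behind each UMI, and their part in the shares was not tested. A Ly6c2 UMI was found in 16.3%, 8.55%, 6.58% and 6.99% of the thinned cells of healthy mice 227, 228, 239 and 240. The shares in MI mice 244, 250, 255 and 256 were 1.88%, 2.3%, 1.52% and 4.45%. With the 960 thinned copies of mouse 228 and the 129 of mouse 227 removed, their shares were 13.3% and 17.2%. The groups again did not overlap, whereas without thinning the shares were 13.7% to 33.8% and 6.97% to 14.1%, which overlapped. Thinned shares for Ly6a were 87.1% to 94.5% in healthy and 84.5% to 89.8% in MI mice, those for Ly6c1 were 88.1% to 92.4% and 77.7% to 88.8%, and those for Ly6e were 87.8% to 89.5% and 85.3% to 92.3%. Without thinning, these members were seen in 95.4% to 99.7% of the same cells. In mural-marked cells, which sit outside the endothelium, a Ly6c2 UMI was found in 1.6% to 5.88% of thinned cells in the 3 healthy mice with at least 20 such cells and in 0% to 2.44% in MI mice, on 31 to 125 cells a mouse. The 0% stood for 0 of 31 cells in mouse 244 and 0 of 62 in mouse 256, which at 1000 UMIs a cell allow shares of up to 9.68% and 4.84% by counting error. Without thinning, the same cells of these mice held a Ly6c2 UMI in 12.9% and 6.45%. Thinned mural-marked cells also held Ly6c1 in 48.8% to 64.9%, and whether their counts are free RNA was not tested, so their shares are given only for comparison. With the copied cells kept, each endothelial share of healthy mice lay above each mural share, whereas those of MI mice overlapped. Copies made up 111 of the 134 mural-marked cells of mouse 228. Without them its mural Ly6c2 level went from 24.2 to 65.8 CPM, on 7 UMIs in 23 cells, and that of mouse 227 from 42.3 to 38.9 CPM. Thinned mural shares were not computed without copies, so nothing is read from their order.

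Healthy mice varied among themselves, most for Ly6c2 and least for Ly6e among the 4 members. The SD of log2 CPM over the 4 healthy mice was 0.605 for Ly6c2, and of the 6185 genes tested whose mean reached 20 CPM, 82 (1.33%) had an SD as large. It was 0.203 for Ly6a and 0.175 for Ly6c1, above the median gene at 0.143. Ly6e had 0.0285, and 98.6% of those genes had a larger or equal SD, but its SD was 0.0576 without the copied cells, for which no rank is given. The members were chosen with these values known, so their places among all genes are a description and nothing is read from them. Mouse 227 was the highest and mouse 240 the lowest healthy mouse for each of the 4 members. Without the copied cells this held for Ly6a, Ly6c1 and Ly6c2, but mouse 228 was then the lowest for Ly6e. The ratio of highest to lowest was 2.5 for Ly6c2, 1.39 for Ly6a, 1.3 for Ly6c1 and 1.04 for Ly6e.

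Leaving out mouse 227 narrowed the spread of Ly6a and Ly6c1, to a healthy SD of 0.106 and 0.0711 with the copied cells kept and of 0.0775 and 0.0657 with them removed. For Ly6c2 and Ly6e this depended on the copied cells. With the copies kept, their SD without mouse 227 was 0.329 and 0.00323, and with the copies removed it was 0.60 and 0.0476, against 0.699 and 0.0576 when mouse 227 was included. This library also had the highest summed level of 22 interferon-induced genes among healthy mice (9011 CPM against 5149 to 6689 CPM), the lowest summed level of 12 immediate-early and heat-shock genes (5532 CPM against 7936 to 8660 CPM) and the low Xist noted above. The part of these in the high Ly6 levels of mouse 227 was not tested. MI mice spread as widely for Ly6c2, with an SD of 0.624 and a highest-to-lowest ratio of 2.93, and mouse 256 was the highest MI mouse for all 4 members. Without mouse 256, left out after seeing the data, the SD of Ly6c2 was 0.358 and the ratio 1.69. The library of mouse 256 had the fewest endothelial UMIs of the MI group (14425395 against 21773415 to 23944108) and the highest lymphatic sum (264 CPM against 76.0 to 93.8 CPM). Its haematopoietic (312 CPM), monocyte (136 CPM) and interferon-induced (7907 CPM) sums were the lowest of that group, and it had the fewest Plvap-high cells, 97. Their part in its Ly6 levels was not tested.

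The share of Ly6c2 among Ly6c1 and Ly6c2 UMIs was computed because a read can match either copy. In endothelial cells it was 3.94%, 3.12%, 2.01% and 2.08% in healthy mice 227, 228, 239 and 240 and 0.757%, 0.823%, 0.608% and 1.24% in MI mice 244, 250, 255 and 256. Without the copied cells mouse 228 had 4.2% and mouse 227 had 4.04%, so that 228 became the highest healthy mouse. The groups did not overlap either way, with means of 2.79% ± 0.921 and 0.857% ± 0.271 (SD, n = 4 each) over all endothelial cells. The share also differed between copies of the same cells. It was 0.361% in the copies of mouse 228 against 1.95% in their partners in 239, and 0.264% in those of mouse 227 against 4.56% in their partners in 228. What sets the share in a library, and its part in the difference between healthy and MI mice, was not tested. Between capillary and interferon-marked cells of 1 mouse the share was 3.85% and 4.01% in mouse 227 and 0.673% and 0.706% in mouse 244. In mouse 255 it was 1.04% and 0.536%, on 19 Ly6c2 UMIs in the capillary cells. Arterial cells departed from capillary cells in both directions. Their share was higher in mouse 227 (5.22%) and lower in MI mice 250 (0.526% against 0.848%) and 255 (0.624% against 1.04%), on 24 to 53 Ly6c2 UMIs a mouse. In mouse 228 it was 2.84% against 3.65%, and with the copies removed 3.95% against 4.2%.

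**Figure D2:**
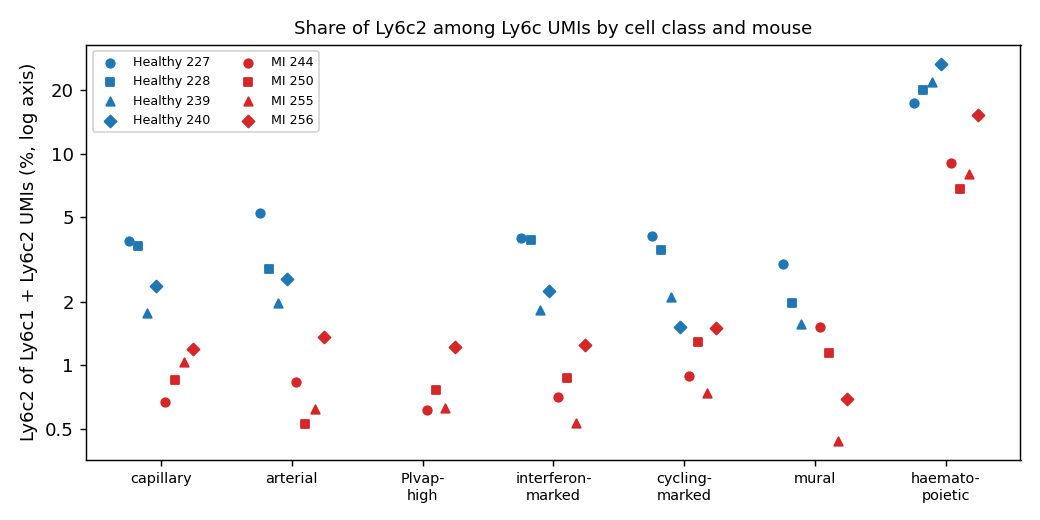
Percent of Ly6c1 and Ly6c2 UMIs that were counted to Ly6c2 (y axis, log scale) in each cell class with at least 20 cells, with 1 symbol a mouse, blue for healthy and red for MI. Healthy mice lie above MI mice in capillary, arterial and interferon-marked cells, and haematopoietic-marked cells lie highest in both groups, at 17.4% to 26.7% and 6.79% to 15.3%.

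Cells with more Ly6c1 also had Ly6c2 more often. Among thinned healthy cells without a Ly6c1 UMI, Ly6c2 was found in 2.25% ± 0.356 (SD, n = 4), and among those with 6 or more Ly6c1 UMIs it was found in 18.1% ± 6.71. The corresponding shares in MI mice were 1.22% ± 0.855 and 4.66% ± 1.71. At 6 or more Ly6c1 UMIs the lowest healthy mouse (12.4%) still lay above the highest MI mouse (7.18%). The groups were also apart at 1, at 2 and at 4 to 5 Ly6c1 UMIs, but they overlapped at 3 (3.8% to 16.0% in healthy and 1.84% to 5.33% in MI mice) and among cells without Ly6c1 (2.01% to 2.78% and 0.432% to 2.36%). With the copies removed the same bins were apart, and the healthy share at 6 or more Ly6c1 UMIs was 19.9% ± 7.51. The ratio of Ly6c2 to Ly6c1 UMIs is not read across these bins, since the same Ly6c1 count sets the bin and the ratio. This is a description of cells that share libraries and of transcripts that can share reads.

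**Figure D3:**
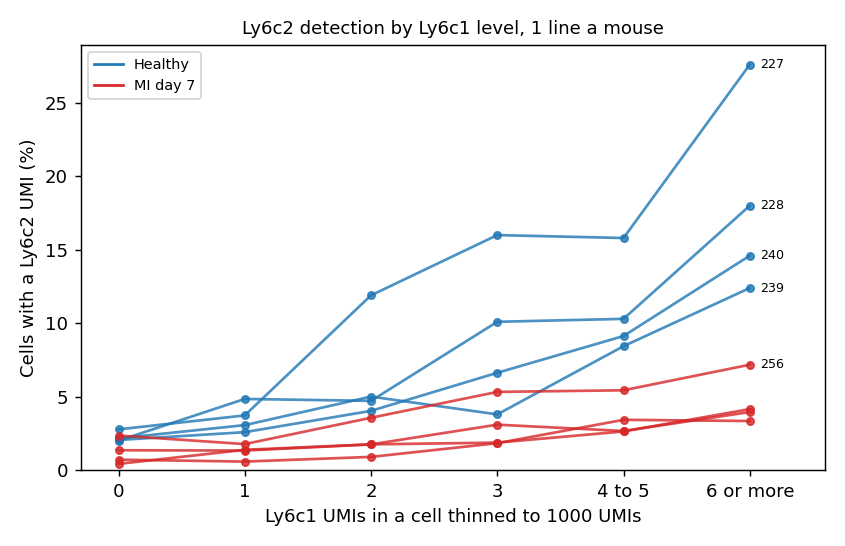
Percent of endothelial cells with a Ly6c2 UMI (y axis) by the number of Ly6c1 UMIs in the same cell (x axis), after thinning each cell to 1000 UMIs, with 1 line a mouse (healthy blue and numbered, MI red, of which only 256 is numbered). The lines of healthy mice climb to between 12.4% and 27.6%, and those of MI mice end between 3.35% and 7.18%.

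Endothelial classes were then compared within mice. Cells were classed on thinned counts as capillary by Car4, as arterial by Gja4, an arterial gap junction protein, or as Plvap-high by at least 2 UMIs of Plvap. None of these genes is a member, so the classes were not cut on the members, which were tested with the mouse as a block. The members and these tests were chosen with earlier results of these data known. The p-values of members between classes, interferon-marked cells included, are therefore given as a description. Capillary cells numbered 496 to 701 a healthy mouse and 136 to 631 an MI mouse, and arterial cells 91 to 269 and 254 to 303. Plvap-high cells numbered 3 in each healthy mouse and 97 to 521 in MI mice, so that class was compared in the 4 MI mice only. Of the 1199 thinned MI cells that reached the Plvap cut, 512 sat at it, and 1396 cells lay 1 UMI below it. The class is thus a range of a count. Markers not used for the classes were then looked at. All 9 arterial genes checked (among them Gja5, Sox17 and Hey1) were higher and all 8 capillary genes (among them Rgcc, Cd36 and Lpl) lower in arterial cells, and 8 of 9 genes of the Plvap-high list (among them Selp and Nr2f2, both known from veins) were higher in Plvap-high cells. Some markers crossed these labels. Of the 7 genes of the Plvap-high list tested there, 4 were higher in arterial cells too, namely Vegfc (3.58), Vwf (2.24), Lrg1 (1.01) and Vcam1 (0.80 on the log2 scale), and the arterial gene Fbln5 was higher by 2.01 in Plvap-high cells.

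Plvap-high cells had less of each member than capillary cells of the same mice. They were also the deeper cells, with a median of 6063 to 7134 UMIs a cell against 2768 to 3770.5, and no doublet caller was run. Ly6c1 was at 1700, 2077, 1164 and 1750 CPM in the Plvap-high cells of mice 244, 250, 255 and 256, against 2665, 3104, 2758 and 3575 CPM in their capillary cells. The ranges did not overlap, and Ly6c1 fell by 0.85 ± 0.09 on the log2 scale (SE, adjusted p = 5.92e-07, edgeR, 4 of 4 mice). Ly6a was at 1896, 2157, 1574 and 1968 CPM against 2876, 3206, 3150 and 3183 CPM, a log2 difference of -0.69 ± 0.08 (adjusted p = 6.5e-07, edgeR, 4 of 4 mice). With the classes cut on full instead of thinned counts the differences were smaller, at -0.56 for Ly6c1 and -0.38 for Ly6a, and both still passed.

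Ly6c2 had 10.6, 15.9, 7.37 and 21.7 CPM in Plvap-high cells and 18.1, 26.6, 29.1 and 43.3 CPM in capillary cells of the same 4 mice. Although these ranges overlapped, every mouse was lower in Plvap-high cells, with a log2 difference of -1.03 ± 0.22 (adjusted p = 0.00099, edgeR), on only 17 to 27 Ly6c2 UMIs a mouse in that class. Ly6e changed least, with 1930, 2323, 1746 and 2242 CPM in Plvap-high cells and a log2 difference of -0.41 ± 0.07 (adjusted p = 8.9e-05, edgeR, 4 of 4 mice). That 4 of 4 members fell stands against 14.1% of the 9249 genes tested that were called lower in Plvap-high cells. Interferon-induced genes were lower there as well, 20 of 22 passing the test, as were 7 of 12 immediate-early and heat-shock genes, and the part of these genes and of depth in the members' levels was not tested.

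Arterial cells differed from capillary cells by less, and for some members only. Ly6a was higher in arterial cells in 8 of 8 mice, at 3870 ± 410 CPM against 3214 ± 454 CPM in healthy mice and at 3830 ± 41.3 CPM against 3104 ± 154 CPM in MI mice (SD, n = 4 each). The log2 difference was 0.26 ± 0.04 (SE, adjusted p = 8.01e-06, edgeR). Ly6c1 was higher in 7 of 8 mice by 0.16 ± 0.04 (adjusted p = 0.00412, edgeR), a call that was lost in healthy mice alone (adjusted p = 0.156) and whose sign turned with a cut of at least 2 class UMIs (log2 difference -0.02, adjusted p = 0.916). Ly6c2 (0.14 ± 0.11, adjusted p = 0.458) and Ly6e (-0.02 ± 0.04, adjusted p = 0.847) did not pass edgeR's test. The 2 of 4 members called higher compare with 12.1% of the 8756 genes tested. In the same fit 3 of 12 immediate-early and heat-shock genes were higher, and of 22 interferon-induced genes 2 were higher and 6 lower. Over all genes 1062 were called higher and 983 lower. The part of these genes in the members' levels was not tested.

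The difference between MI and healthy hearts within these classes was of another size for each member. Ly6c2 in capillary cells was at 64.3 to 176 CPM in healthy mice and 18.1 to 43.3 CPM in MI mice, and in arterial cells at 84.5 to 237 CPM and 19.0 to 54.3 CPM, so its groups stayed apart in both classes. In mouse 228 removal of the copies moved its arterial level from 114 to 164 CPM and its capillary level from 125 to 149 CPM. The classes did not hold the same cells in both groups, however. From healthy to MI mice, mean Plvap went from 0.427 to 51.2 CPM in capillary and from 4.74 to 116 CPM in arterial cells, Lrg1 from 0.369 to 48.5 CPM and from 1.12 to 91.2 CPM, and Vwf from 6.84 to 27.2 CPM and from 48.8 to 131 CPM. Car4 went from 929 to 570 CPM in capillary cells. The part of these shifts in the members' levels was not tested. Ly6c1 overlapped in both, with means of 3625 ± 529 and 3025 ± 412 CPM in capillary cells and of 4068 ± 220 and 3484 ± 363 CPM in arterial cells (SD, n = 4 each). Ly6a had nearly equal means in arterial cells, at 3870 CPM in healthy and 3830 CPM in MI mice. Ly6e was higher in MI than in healthy capillary cells on average, at 2769 ± 251 against 2598 ± 126 CPM (SD, n = 4 each), so the sign of its small difference depended on the cells taken.

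**Figure D4:**
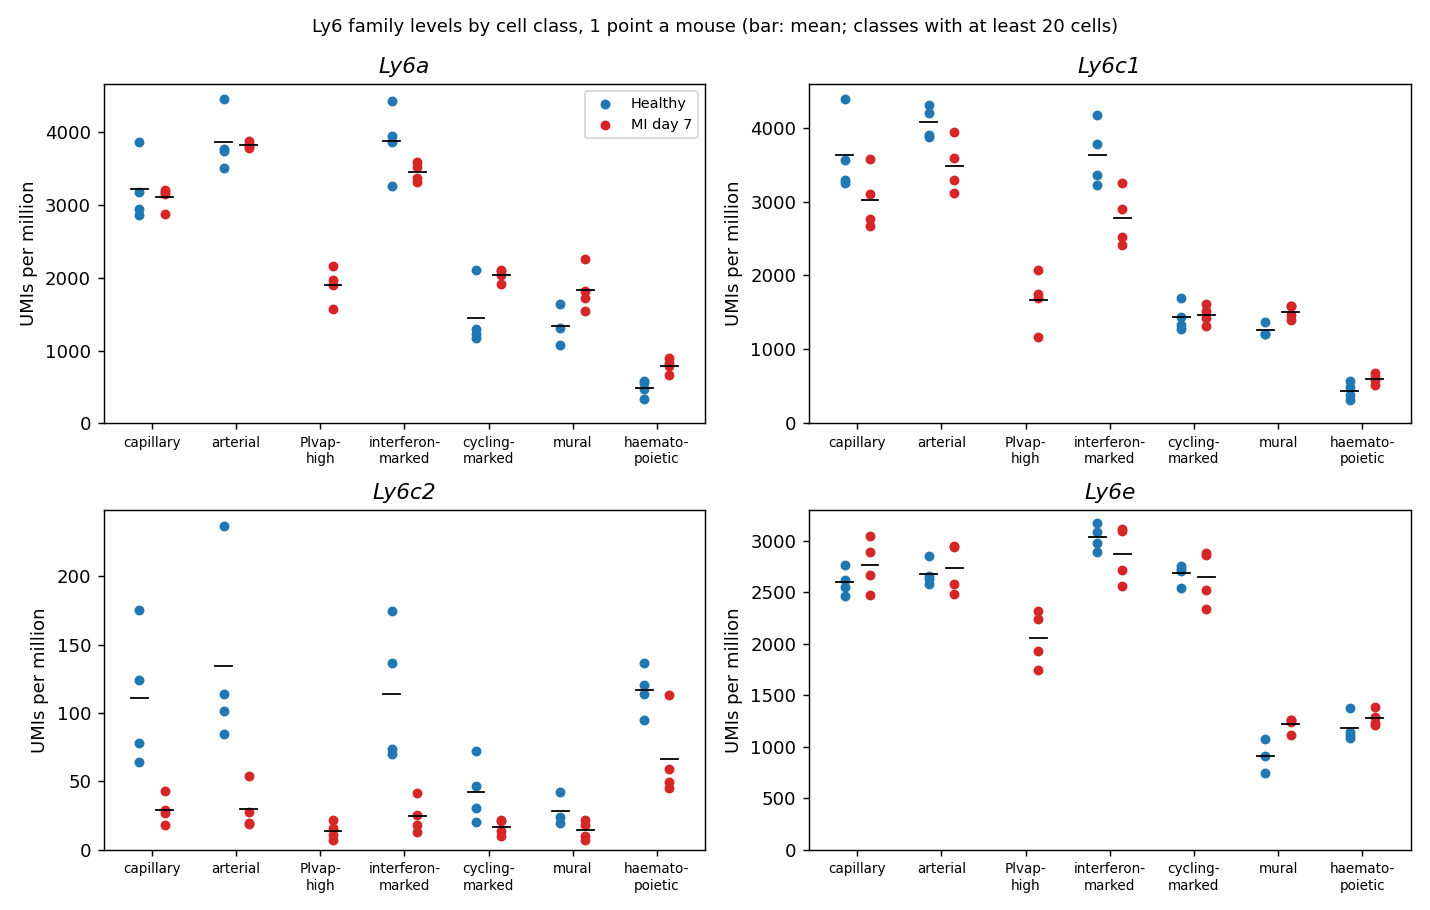
Counts per 1000000 UMIs (CPM, y axis, from 0) of each member by cell class, with 1 point a mouse (healthy blue, MI red) and a bar at the mean of each group. Plvap-high cells, compared in MI mice only, have the lowest Ly6a, Ly6c1, Ly6c2 and Ly6e among the capillary, arterial and Plvap-high classes, and Ly6c2 differs between healthy and MI mice inside the capillary and arterial classes.

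Cells carrying interferon-induced transcripts had more of every member. They were defined by at least 2 UMIs of 9 interferon-induced genes (Ifit1, Ifit2, Ifit3, Ifit3b, Rsad2, Isg15, Usp18, Oasl2 and Rtp4) in a thinned cell and made up 26.5% of thinned healthy cells and 35.7% of MI cells. The class is a range of a score rather than a cell type, since 3430 of its 8732 cells sat at the cut and 6848 cells lay 1 UMI below it. Ly6a had 4430, 3870, 3948 and 3260 CPM in interferon-marked cells of healthy mice 227, 228, 239 and 240, against 3509, 2873, 2711 and 2617 CPM in their other endothelial cells. In MI mice 244, 250, 255 and 256 it had 3367, 3592, 3317 and 3518 CPM against 2484, 2610, 2310 and 2820 CPM. It rose in 8 of 8 mice, by 0.43 ± 0.02 on the log2 scale (SE, adjusted p = 1.62e-13, edgeR).

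Ly6e rose by 0.33 ± 0.02 (adjusted p = 2.48e-12, edgeR, 8 of 8 mice), from 2371 ± 48.6 to 3032 ± 125 CPM in healthy mice and from 2350 ± 275 to 2874 ± 276 CPM in MI mice (SD, n = 4 each). Ly6c1 (0.22 ± 0.02, adjusted p = 2.58e-07, edgeR) and Ly6c2 (0.22 ± 0.05, adjusted p = 0.00523, edgeR) rose less, also in 8 of 8 mice. Both calls were lost where the class was cut on full instead of thinned counts (adjusted p = 0.635 for Ly6c1 and 0.102 for Ly6c2), and that of Ly6c2 also in healthy mice alone (adjusted p = 0.072), whereas Ly6a and Ly6e passed under each alternative run, although on full counts their differences shrank to 0.21 and 0.19. That 4 of 4 members were called higher compares with 5.90% of the 11407 genes tested. All 12 immediate-early and heat-shock genes examined were higher in interferon-marked cells too, by a median of 0.19 on the log2 scale, and 5 of 8 capillary genes were higher as well. Plvap fell there by 0.89 ± 0.06 (adjusted p = 1.36e-11, edgeR), and 5 of 9 genes of the Plvap-high list were lower, among them Ackr1 (-1.16 ± 0.11) and Lrg1 (-1.05 ± 0.04). The part of these markers in the members' rise was not tested. None of the 3 monocyte markers tested there passed.

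**Figure D5:**
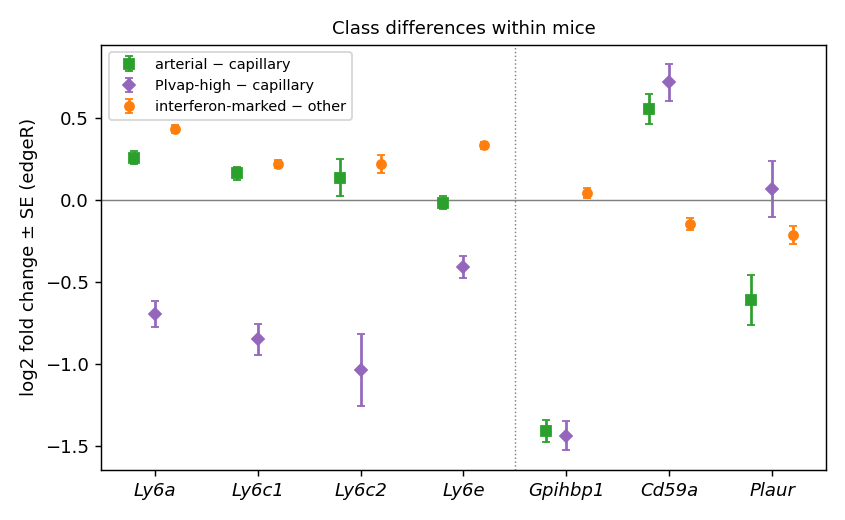
Log2 fold changes ± SE (y axis) between classes of the same mice for the 4 members and for Gpihbp1, Cd59a and Plaur, with green squares for arterial minus capillary, purple diamonds for Plvap-high minus capillary (MI mice) and orange circles for interferon-marked minus other endothelial cells. All 4 members lie below 0 in Plvap-high cells, at -0.41 to -1.03, and above 0 in interferon-marked cells, at 0.22 to 0.43.

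Cells marked by cell-cycle genes had low Ly6a and Ly6c1 and ordinary Ly6e. They were deep cells, with a median of 2397 to 4970 UMIs in healthy and 5990 to 6946 UMIs in MI mice, and the part of depth in these levels was not tested. They numbered 32 to 45 a healthy mouse and 169 to 409 an MI mouse. Ly6c1 was at 1276 to 1693 CPM in these cells of healthy mice and 1320 to 1615 CPM in MI mice, below every capillary value. Ly6a was at 2111, 1299, 1174 and 1232 CPM in healthy mice 227, 228, 239 and 240 and at 1911 to 2111 CPM in MI mice. Its mean was thus higher in MI in these cells, at 2039 ± 91.1 against 1454 ± 441 CPM (SD, n = 4 each), the opposite of its sign over all endothelial cells, although mouse 227 lay within the MI range. Ly6e was at 2545 to 2754 and 2339 to 2882 CPM, inside or near its range over all endothelial cells. Ly6c2 was at 20.5 to 72.3 CPM in healthy and 9.79 to 21.7 CPM in MI mice, and here its groups overlapped, on 4 to 14 Ly6c2 UMIs a healthy mouse. With the copies removed, mouse 228 had fewer than 20 cycling-marked cells. Mouse 227 then had 30, with Ly6a at 2190 CPM, above the MI range. The cycling cells were not fitted, and their levels are given as a description. Leaving out cycling- and interferon-marked cells left the MI fold changes at -0.25 (Ly6a), -0.53 (Ly6c1), -2.28 (Ly6c2) and -0.10 (Ly6e).

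Other genes of the family did not move as a block. Of 42 further family genes listed, 21 were in the table, 8 were expressed enough to be tested, 1 rose and 2 fell in MI, beside 38.0% of all genes called. Gpihbp1, which carries lipoprotein lipase to the capillary surface, had 2236, 2013, 2104 and 2106 CPM in healthy mice and 1774, 1998, 1179 and 1631 CPM in MI mice. Its groups did not overlap and it fell by 0.45 ± 0.14 on the log2 scale (SE, adjusted p = 0.0309, edgeR), a call lost when any healthy mouse was left out (adjusted p = 0.0553 without 228 to 0.0629 without 227), while the log2 fold change stayed at -0.46 to -0.42. Between classes it fell in arterial cells by 1.41 ± 0.07 and in Plvap-high cells by 1.43 ± 0.09 (adjusted p = 6.5e-16 and 1.78e-10, edgeR).

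Plaur, the urokinase receptor, went the other way, with 22.9, 7.21, 23.9 and 17.0 CPM in healthy mice and 59.5, 46.7, 50.7 and 35.4 CPM in MI mice. It rose by 1.35 ± 0.29 (SE, adjusted p = 0.00504, edgeR), without overlap. Cd59a, an inhibitor of complement lysis, overlapped between the groups, at 64.4 to 82.3 and 66.6 to 89.4 CPM (log2 fold change 0.06 ± 0.11, adjusted p = 0.703, edgeR), and was higher in arterial cells by 0.55 ± 0.09 and in Plvap-high cells by 0.72 ± 0.11 (adjusted p = 1.78e-05 and 4.32e-05, edgeR).

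The rare genes beside the members on chromosome 15 were looked at after their values were seen. Ly6g, known as a neutrophil antigen, had 38, 26, 16 and 23 UMIs in endothelial cells of healthy mice 227, 228, 239 and 240 and 18, 11, 10 and 12 UMIs in the deeper libraries of MI mice 244, 250, 255 and 256. It was the second family gene to fall (log2 fold change -2.63 ± 0.37, adjusted p = 0.000747, edgeR), at 2.09 to 5.89 CPM against 0.459 to 0.832 CPM. Ly6f, too rare to be tested, had 0.524 to 2.64 CPM in healthy and 0.229 to 0.501 CPM in MI mice, without overlap. Ly6i had 1.7 to 6.36 CPM against 1.88 to 2.63 CPM (log2 fold change -0.91 ± 0.35, adjusted p = 0.0622, edgeR). Whether these counts came from reads of the abundant members was not tested. Of the 1082 windows of 75 bases in the Ly6i transcript, 82 (7.58%) lay within 2 mismatches of Ly6a and 6 of these were exact. Of 262 windows of Ly6g, 1 lay within 2 mismatches of Ly6c2, and none of the 803 windows of Ly6f lay so near a member. The Ly6g transcript used holds only 3 bases after its coding sequence, so these windows leave out the end from which 3' counting draws its reads.

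Monocyte markers were higher in the MI sums. Of 6 monocyte markers (Ccr2, Plac8, Csf1r, Lyz2, Chil3 and F13a1), 4 to 6 were detected in the endothelial sums of healthy mice and all 6 in those of MI mice, with a summed level of 9.92 to 46.9 CPM against 136 to 223 CPM. Chil3 was at 0 in healthy mice 227, 228 and 240, Ccr2 in 228 and 240, and F13a1 in 227. In MI, 3 of the 4 tested rose, beside 38.0% of all genes called, led by Lyz2 (2.87 ± 0.41, adjusted p = 0.0008, edgeR). The part of monocyte RNA in the level of Ly6c2 was not tested.

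Of 22 interferon-induced genes, 7 rose and 2 fell in MI, a share close to the 38.0% of all genes called in that fit. Irf7, a transcription factor of the interferon response, rose by 1.44 ± 0.18 (adjusted p = 0.000485, edgeR) and Irgm1, an immunity-related GTPase, by 1.16 ± 0.34 (adjusted p = 0.0228, edgeR). Those that fell were the GTPase genes Tgtp1 (-1.67 ± 0.52, adjusted p = 0.0277) and Tgtp2 (-1.74 ± 0.55, adjusted p = 0.0317, edgeR). Of the 28 genes of GPI anchor synthesis and attachment in the table, 27 were tested, and 7 rose and 2 fell, again near the 38.0% called over all genes. Pigt (0.68 ± 0.10, adjusted p = 0.00104) and Pigk (0.48 ± 0.12, adjusted p = 0.0111), subunits of the transamidase that attaches the anchor, rose, and Dpm1, which supplies mannose for it, fell by 0.46 ± 0.08 (adjusted p = 0.00235, edgeR). Of 12 immediate-early and heat-shock genes, 1 fell, Hspa1b (-1.22 ± 0.41, adjusted p = 0.0378, edgeR), a smaller share than the 38.0% called over all genes.

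The genes most like each member over the 8 mice were taken from the 6181 others whose mean reached 20 CPM, by Pearson's r of log2(CPM + 1). For Ly6c2 these were Stk38 (r = 0.998), Sptbn1 (r = 0.997) and Mcc (r = 0.995). Sptbn1, a spectrin of the membrane skeleton, had 1400, 1170, 1000 and 956 CPM in healthy mice 227, 228, 239 and 240 and 637, 714, 579 and 821 CPM in MI mice 244, 250, 255 and 256, the same order of mice as Ly6c2. Ly6c1 was nearest to Mbtps2 (r = 0.986), Arap3 (r = 0.982) and Mdfic (r = 0.98), and Ly6a to Ptbp3 (r = 0.99), Aff4 (r = 0.988) and Map4 (r = 0.97). Ly6e was nearest to Ubl3 (r = 0.976), Slc7a6os (r = 0.907) and Tbc1d22a (r = 0.886). These are the largest of many correlations over mice whose groups also differ in depth, and they carry no test.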

How the data were processed

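Ventricular CD31+ podoplanin- Confetti+ cells were sequenced by 10X 3' v2 chemistry. The deposited file holds raw UMI counts per gene and cell, which the authors made with Cell Ranger 2.1.0 on mm10 (Ensembl 84) after removing cells with fewer than 400 genes or over 20% mitochondrial counts (R 3.5.2, Seurat 2.3). No doublet caller was run here. Cells were typed by the larger sum of marker UMIs, thinned to 1000 UMIs (random seed 1) and classed, and counts were summed per mouse. A pair of cells was called copied where at least 90% of the smaller cell's UMIs matched. edgeR 4.0.16 (R 4.3.3, quasi-likelihood, TMM, filterByExpr, Benjamini-Hochberg at 0.05) gave log2 fold changes and adjusted p, with the mouse as a block between classes (at least 20 cells a class). DESeq2 1.42.0 was an alternative, and leaving out each mouse, other cell sets, scalings, filters and class cuts were the others. Groups came from the GEO labels, which make each sample 1 mouse, and replicate numbers are not shared between groups. Depth was 6448885 to 7655547 (healthy) and 14425395 to 23944108 (MI) endothelial UMIs a mouse. The members, gene lists and tests were chosen with earlier results of these data known. Named beside the members were family genes averaging at least 5 CPM, the 3 genes most like each member, and up to 4 called genes with the highest and lowest fold change and at least 20 CPM on average in the interferon, GPI and stress lists, besides class-defining genes and check markers, of which the examples were picked by hand. Ly6g, Ly6f and Ly6i fall outside this rule and were added after their values were seen. Sequences came from GENCODE and RefSeq tables of GRCm38 and were aligned with Biopython 1.88.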

Additional observations from a re-analysis of the deposited data

Results flagged for a closer look

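Of 38 sets of 4 mice (a member in a group and class, and the Ly6c2 share) examined for a mouse far from its group by Dixon's criterion, 2 were singled out, and chance gives about 1 in 20. Ly6e over endothelial cells was 2637 CPM in healthy mouse 227, set apart from the other healthy mice at 2532 to 2542 CPM, a gap that makes up 0.905 of the group's range. Without the copied cells mouse 228 stood at 2396 CPM, the gap of mouse 227 was 0.402 of the range, and it was no longer set apart. Ly6a in capillary cells was 2876 CPM in MI mouse 244, below the other MI mice at 3150 to 3206 CPM, a gap of 0.83 of the range. Both gaps are small beside the levels themselves.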

How the results depend on the processing

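Ly6c2, Ly6c1 and Ly6a were lower in MI under each of 10 alternatives (log2 fold change -2.41 to -1.98, -0.55 to -0.33 and -0.26 to -0.12) and without any 1 mouse (-2.61 to -1.91, -0.63 to -0.44 and -0.31 to -0.15). Ly6e turned to 0.022 in capillary cells alone, an alternative chosen, like that without a scaling factor, after seeing the data. Genes called in MI were 2641 after thinning and 1422 in capillary cells. With the stricter class cut, 940 genes were called between arterial and capillary cells and 1520 in Plvap-high cells (1585 by DESeq2), Ly6c2 was too rare there to be tested, and Ly6c1 turned to -0.019 in arterial cells (0.14 in healthy mice alone). For interferon-marked cells 721 genes were called by DESeq2, 849 with full counts and 265 in healthy mice alone, with Ly6c1 at 0.027 and Ly6c2 at 0.20 on full counts and Ly6c2 at 0.22 in healthy mice alone. No member's call between classes changed without copied cells or without any 1 mouse. The cause was not tested, beyond fewer mice or cells where these were removed. The healthy SD of Ly6e was 0.0568 over all cells, 0.0576 without copies and 0.0695 in capillary cells, and 0.00323 to 0.0338 with 1 healthy mouse left out, and that of Ly6c1 was 0.0711 to 0.214 with 1 left out. Removing the copies and mouse 227 together, tried after seeing the data, gave 0.0476 for Ly6e, 0.0775 for Ly6a and 0.0657 for Ly6c1. Gpihbp1 lost its call after thinning (log2 fold change -0.39, adjusted p = 0.0561), without a scaling factor (-0.36, 0.0586) and in capillary cells (-0.23, 0.139), and without MI mouse 255 it was -0.31 and kept its call. The Ly6c2 share differed by 1.55 to 2.23 percentage points in every run. No paired analysis was possible because the groups share no replicate numbers. Few single MI cells hold a Ly6c2 UMI at 1000 UMIs.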

Other observations

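The few cells outside the endothelium held the members in other proportions. Haematopoietic-marked cells, 31 to 96 a healthy mouse and 117 to 463 an MI mouse, had 338 to 582 CPM and 661 to 897 CPM of Ly6a, and 313 to 572 CPM and 516 to 682 CPM of Ly6c1. Their Ly6c2 was at 95.1 to 136 CPM and 44.9 to 113 CPM, which puts its share of Ly6c1 and Ly6c2 UMIs at 21.5% ± 3.92 (SD) over 4 healthy mice and 9.79% ± 3.79 over 4 MI mice, above the endothelial share in each of the 8 mice. Mural-marked cells had 1072 to 1634 CPM (3 healthy mice) and 1547 to 2264 CPM of Ly6a, and Ly6e at 742 to 1078 and 1119 to 1264 CPM. Removal of the copied cells left 23 mural-marked cells in mouse 228, with Ly6e at 1137 CPM, inside the MI range, and fewer than 20 of its haematopoietic-marked cells. How much of these counts is free endothelial RNA or joined cells was not tested.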
